A study of Mus musculus with 10 samples.

Results

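The translation initiation factor genes are the protein-coding mouse genes whose GENCODE M21 symbol begins with Eif1 to Eif6, without the Eif2ak kinase genes. They numbered 51 of the 55471 genes in the count tables, and of the 21974 protein-coding genes among them. RNA came from primary microglia, the macrophages that reside in the brain, of wild-type mice, grown in DMEM with 10% fetal bovine serum. In 5 libraries the cells had received a control gapmer, and in 5 a gapmer against 3222401L13Rik, a noncoding RNA. A gapmer is an antisense oligonucleotide that directs RNase H to its target RNA. All 10 libraries thus came from gapmer-treated cells, and the labels give no untreated group, animal age or animal number. Nothing in the labels says that replicates came from separate cultures, so a p-value here speaks of the spread among libraries, and that spread may be technical.

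Initiation factors bring the initiator tRNA, the small ribosomal subunit and an mRNA together at a start codon. eIF2 carries the initiator tRNA with GTP, eIF2B exchanges the GDP of spent eIF2 for GTP, eIF3 is the large scaffold on the small subunit, and the eIF4 proteins bind the cap and unwind the leader. eIF1, eIF1A, eIF5 and eIF5B control start codon choice and subunit joining. In microglia, as in other cells, kinases that phosphorylate eIF2 and the mTOR pathway, which acts on the eIF4E-binding proteins, set the rate of this step.

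Total reads ranged, in units of 1000000, from 4.32 to 5.64 in the control libraries and from 5.59 to 6.64 in the knockdown-labelled ones. The targeted RNA had 28 to 34 reads in control and 22 to 38 in knockdown-labelled libraries (log2 fold change -0.17 ± 0.23, SE, adjusted p = 0.54), so its counts did not check the labels, and directions below are between libraries as labelled. Reads of 1135 olfactory receptor genes, which microglia are not known to use, served as a measure of background. Their density per 1000000 reads was 0.599 ± 0.147 reads per kb in control and 0.257 ± 0.0674 in knockdown-labelled libraries (SD, n = 5 each). The background share of a gene is the part of its reads that this density would give over its exons. All 8 microglia markers on the list had reads, although Tmem119 had only 2.84 ± 1.19 CPM (counts per 1000000 reads) in control. Their summed levels were 1820.0 to 2100.0 CPM in control and 2212 to 2543 CPM in knockdown-labelled libraries, without overlap. With the TMM scaling described below, 7 of the 8 were called higher and none lower, with a median log2 fold change of 0.28. With that scaling 22.9% of all tested genes were called higher and 31.3% lower. Among tested genes with a background share under 5% these values were 75.5% and 0.486%. On the low-background scale described below none of the 8 microglia markers was called, with a median of 0.032. Summed levels also did not overlap between control and knockdown-labelled libraries for the 4 neuronal markers (20.9 to 33.9 against 8.79 to 16.8 CPM, all 4 lower) and the 3 fibroblast markers (20.5 to 26.6 against 9.62 to 18.2, 2 lower of 2 tested). They overlapped for the 3 endothelial (12.5 to 20.8 against 10.1 to 12.7, 2 lower of 2 tested), the 5 oligodendrocyte-lineage (55.4 to 61.2 against 44.4 to 59.4, 2 lower of 4) and the 5 astrocyte markers (133.8 to 143.5 against 128.3 to 166.9, 2 higher and 1 lower of 5). The tested genes of the neuronal list had a median background share of 54.7%. It was 45.3% for the oligodendrocyte-lineage, 30.5% for the endothelial and 27.6% for the fibroblast list, against 8.38% for astrocytes and 0.69% for microglia. None of the markers was at 0 in every library. Whether those cells or that background had a part in the results below was not tested. In bulk RNA, fewer cells of a type and less RNA per cell cannot be told apart.

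Of the 51 genes, 48 had enough reads to be tested. The genes Eif4e1b, Eif4ebp3 and Eif3j2 did not. With the usual TMM scaling (edgeR's trimmed mean of M values), 37 of the 48 were higher in the knockdown-labelled libraries and 1, Eif2b3, was lower. The genes that rose did so by small and similar amounts, and the median log2 fold change of the 48 was 0.25. Over all 19263 tested genes, 22.9% were called higher and 31.3% lower, with a median of -0.095. Among the 4728 tested genes with a background share under 5%, however, 75.5% were called higher and 0.486% lower, with a median of 0.24. Of the 37 initiation factor genes in that class 33 rose and none fell, with a median of 0.25. The median of all 48 tested members, 11 of which had a share of 5% or more, differed from that of the low-background genes by 0.0029.

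When the libraries were scaled on the genes with a background share under 5%, 3 initiation factor genes were higher (Eif5, Eif4g2 and Eif3a) and 2 were lower (Eif2b3 and Eif2d), with a median of 0.0018. On that scale 1.62% of all tested genes were higher and 44.6% lower, with a median of -0.34. Of the low-background genes, 6.32% were higher and 5.46% lower. The median of that class is near 0 by construction. Each rise given below with TMM scaling is therefore a rise over the average tested gene, and the value on the low-background scale is given beside it or as the range of its group. The share of all reads that fell in the 51 genes was 0.663% ± 0.0183 in control and 0.704% ± 0.00696 in knockdown-labelled libraries (mean and SD of 5). By an exact permutation test, two-sided, p was 0.00794, which is the smallest value that 5 against 5 can reach. As a share of the reads of low-background genes it was 0.837% ± 0.00964 and 0.841% ± 0.0145 (p = 0.563 by the same exact permutation test).

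**Figure D1:**
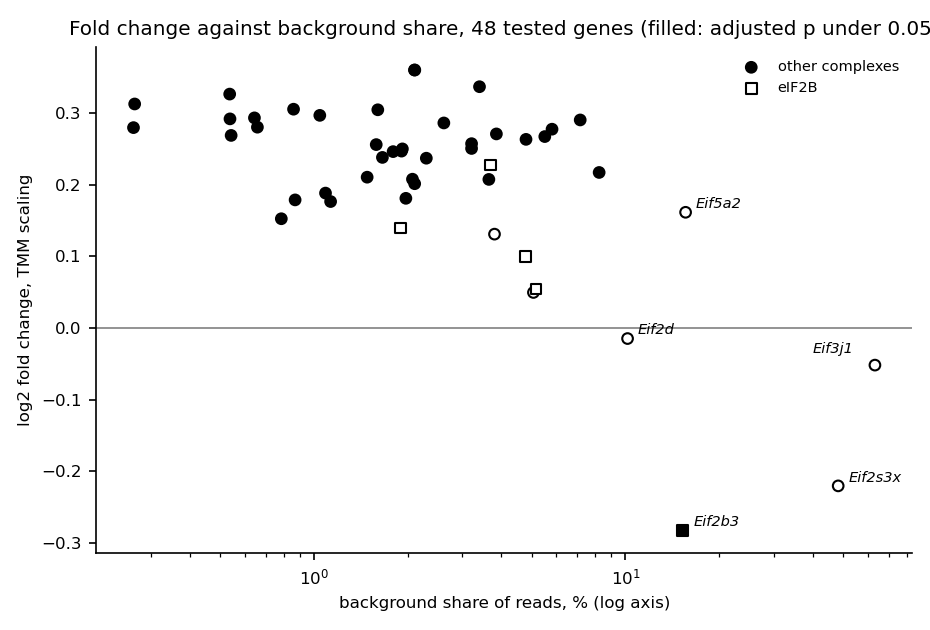
The background share of each of the 48 tested genes (x axis, %, log scale) against its log2 fold change with TMM scaling (y axis), with filled symbols for an adjusted p under 0.05 and squares for eIF2B. The genes that rose lie at shares of at most 8.24%, and Eif2b3, at 15.3%, is the only filled symbol below 0.

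Levels per length ranged widely. In control libraries the highest was Eif3c, at 141 ± 8.91 CPM per kb of exon, and the lowest tested member was Eif3j1, at 0.669 ± 0.207 (SD, n = 5). Eif3c and Eif3a, at 138 ± 12.9 CPM per kb, lay within each other's spread at the top of the order. Next came Eif4g1 (68.7 ± 3.30 CPM per kb), Eif3g (68.7 ± 7.29) and Eif4g2 (67.9 ± 5.88), which also lay within each other's spread, and then Eif3b (57.4 ± 4.66) and Eif4b (56.3 ± 5.08), which did so too. These 7 were the highest of the 51 genes per length, and their complexes also held lower members, such as Eif4g3 (18.4 CPM per kb), Eif3m (10.7) and Eif3e (7.80). At the other end lay Eif2b3, Eif5a2, Eif2s3x, Eif3j1 and the 3 untested genes, all under 3 CPM per kb in control.

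**Figure D2:**
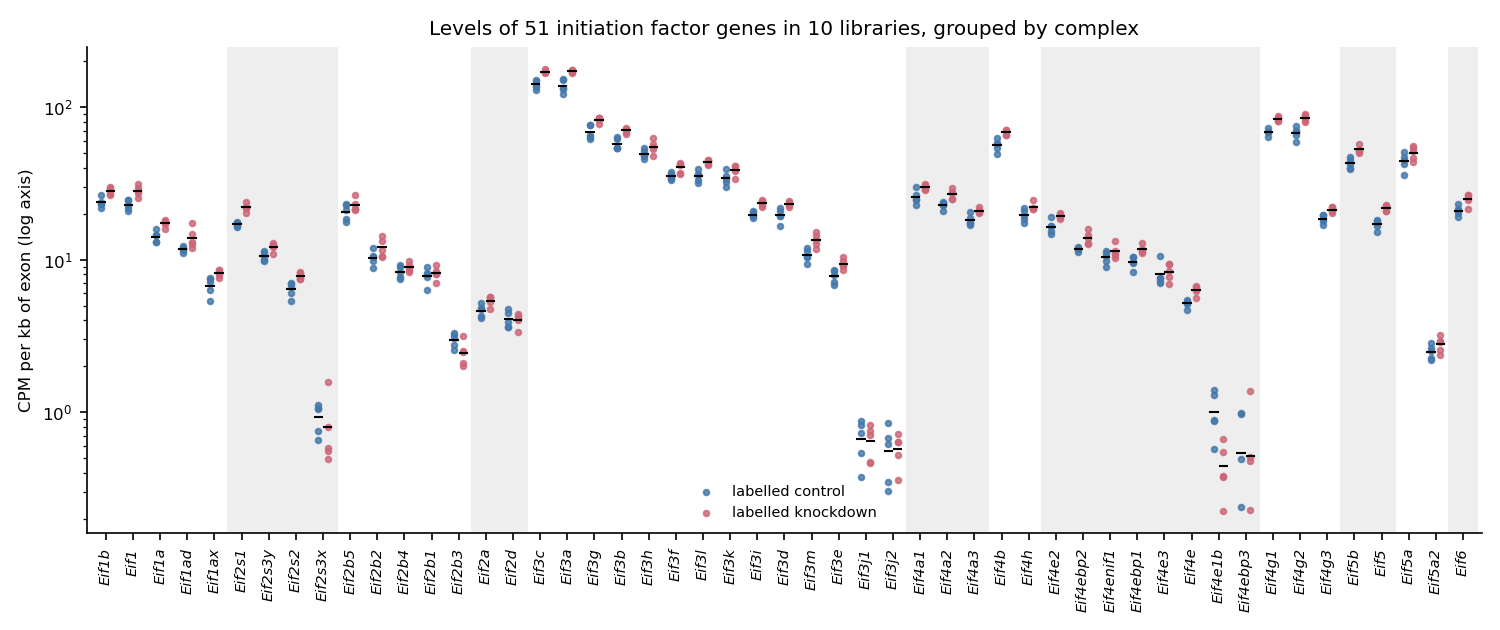
Level of each of the 51 genes in each library, in CPM per kb of exon on a log axis, grouped by complex with shaded bands, blue for control and red for knockdown-labelled libraries, with black bars for the means of 5 libraries. Values of 0, which occur for Eif4ebp3, are counted in the mean but cannot be drawn on this axis. Eif3c and Eif3a stand at the top, and Eif2s3x, Eif3j1, Eif3j2, Eif4e1b and Eif4ebp3 near 1 CPM per kb or below.

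The scanning factors eIF1 and eIF1A, which hold the small subunit open until a start codon is found, were higher in all 5 of their genes with TMM scaling (log2 fold changes 0.26 to 0.30). None was called on the low-background scale (0.0098 to 0.06). Beside this count and those of the complexes below, 22.9% of all tested genes and 75.5% of low-background genes were called higher with TMM scaling. Eif1 had 51.7, 47.6, 43.6, 45.9 and 51.97 CPM in control replicates 1 to 5 and 53.5, 65.8, 59.1, 61.8 and 57.2 CPM in knockdown-labelled replicates 1 to 5. The groups did not overlap, and the log2 fold change was 0.30 ± 0.074 (SE, adjusted p = 0.000595). Eif1b, its paralog and the highest of the 5 per length, had 26.04, 27.01, 29.6, 24.7 and 25.9 CPM in control and 30.1, 30.1, 33.9, 31.7 and 33.2 CPM in knockdown-labelled libraries. Those groups did not overlap either, and the log2 fold change was 0.26 ± 0.090 (SE, adjusted p = 0.0139). Eif1a and Eif1ax, which encode eIF1A from an autosome and the X chromosome, changed by 0.29 and 0.27, and Eif1ad, which encodes a protein with an eIF1A-like domain, by 0.26. The call of Eif1ad was lost without knockdown-labelled replicate 3 (adjusted p = 0.0952), and 15.3% of its exon bases overlap Banf1 on the other strand. Eif1 shares 19.2% of its 50-base stretches with transcripts of other genes, so its counts are uncertain. The largest shared part, 9.66% of the stretches, is with the protein-coding gene Emd, which had 1030 reads over all libraries. The other larger shared parts are with processed pseudogenes.

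The 3 subunits of eIF2, alpha, beta and gamma, come from 4 genes in the mouse because gamma has an X-linked and a Y-linked copy. Eif2s1, the alpha subunit that stress kinases phosphorylate, had 86.1, 86.4, 80.8, 82.8 and 88.04 CPM in control libraries and 99.6, 110.4, 118, 108 and 108 CPM in knockdown-labelled ones. All 5 knockdown-labelled libraries were above all 5 control libraries. Its log2 fold change of 0.36 ± 0.063 (SE, adjusted p = 8.31e-06) was, with that of Eif5, the highest of the 48, and on the low-background scale it was 0.11 ± 0.050 (SE, adjusted p = 0.0593). Eif2s2, the beta subunit, rose by 0.28 (adjusted p = 0.00236) and the gamma gene Eif2s3y by 0.21 (adjusted p = 0.0184). On the low-background scale Eif2s2 was at 0.034 and Eif2s3y at -0.038, neither called.

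The other gamma gene, Eif2s3x, had 22, 12, 22, 23 and 16 reads in control and 32, 11, 18, 12 and 13 reads in knockdown-labelled libraries. Eif2s3y had 229, 207, 220, 249 and 265 and 284, 294, 307, 257 and 298 reads in the same libraries, so the Y-linked copy had more reads in all 10. Knockdown-labelled replicate 1 was the highest library for Eif2s3x, and the groups overlapped. The log2 fold change was -0.22 ± 0.30 (SE, adjusted p = 0.548). The 95% interval of that change, -0.82 to 0.38, takes in both a fall and a rise, and background would account for 48.2% of the gene's reads. The coding sequences of the 2 genes, 1419 bases each in GENCODE M21, differ at 194 positions (86.3% identity), and no 50-base stretch of the Eif2s3y coding sequence recurs in that of Eif2s3x. By contrast, 95% of the 50-base stretches of the Eif2s3x coding sequence recur in Gm2223, a processed pseudogene on the X chromosome that itself had 16 reads over all libraries. Coding bases 601 to 660 are shown because they separate the X and Y copies and lie in the part that Eif2s3x shares letter for letter with Gm2223. Capitals mark the 14 positions at which the copies differ.
Eif2s3x: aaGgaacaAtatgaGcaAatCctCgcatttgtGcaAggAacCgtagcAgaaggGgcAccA
Eif2s3y: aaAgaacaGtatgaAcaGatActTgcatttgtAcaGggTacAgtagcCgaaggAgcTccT
The sources used here do not say how reads that match several genes were counted, and the reads of Eif2s3x are uncertain.

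eIF2B, the exchange factor that recharges eIF2, had a median log2 fold change of 0.10 with TMM scaling, against 0.25 over the 48 genes. None of its 5 genes was called higher with TMM scaling, 4 were not called, and Eif2b3, the gamma subunit, was lower. Of all tested genes 22.9% were called higher, and of the low-background genes 75.5%. The 95% intervals of the 4 uncalled genes each took in 0.25. They were -0.16 to 0.27 (Eif2b1), 0.012 to 0.44 (Eif2b2), -0.10 to 0.30 (Eif2b4) and -0.013 to 0.29 (Eif2b5). That of Eif2b3, -0.52 to -0.044, did not. Whether eIF2B as a complex differed from the other members was not tested. Eif2b5, the catalytic epsilon subunit and the highest of the 5 per length, had 55.2, 48, 59.6, 45.5 and 59.6 CPM in control and 55.02, 60.5, 56.04, 68.8 and 55.4 CPM in knockdown-labelled libraries. Its groups overlapped, with a log2 fold change of 0.14 ± 0.077 (SE, adjusted p = 0.115). Eif2b1, the alpha subunit of the regulatory part, had 20.9, 16.2, 20.98, 19.7 and 23.04 CPM in control and 20.8, 23.8, 18.2, 21.6 and 20.8 CPM in knockdown-labelled libraries. That difference, 0.055 ± 0.11 (SE, adjusted p = 0.685) on the log2 scale, was not called. The regulatory subunits Eif2b2 (beta) and Eif2b4 (delta) were at 0.23 ± 0.11 (SE, adjusted p = 0.0679) and 0.10 ± 0.10 (SE, adjusted p = 0.411). On the low-background scale the values of all 5 were below 0, from -0.53 to -0.018, with a median of -0.14. After subtraction of the expected background reads 4 of the 5 were below 0, with a median of -0.12.

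Eif2b3 (GRCm38 chromosome 4, 117019402 to 117087306, plus strand) had 20.03, 21.6, 20.98, 18.1 and 16.8 CPM in control and 16.4, 13.1, 13.7, 20.7 and 16.2 CPM in knockdown-labelled libraries. Knockdown-labelled replicate 4 lay inside the control range and the other 4 below it. The log2 fold change was -0.28 ± 0.12 (SE, adjusted p = 0.0404) with TMM scaling, -0.53 ± 0.13 (SE, adjusted p = 0.00141) on the low-background scale and -0.42 ± 0.14 (SE, adjusted p = 0.0378) after background subtraction. It lost its call with TMM scaling when any of 7 libraries was left out (control replicates 1 to 3 and knockdown-labelled replicates 1, 2, 3 and 5), with adjusted p from 0.0649 to 0.202. The call was also lost with DESeq2 (-0.21, adjusted p = 0.187) and when genes of low count were kept in the fit (-0.15, adjusted p = 0.381). With background density as a term the sign turned (0.094 ± 0.22, SE, adjusted p = 0.958). Density did not overlap between the groups, so that fit can barely separate it from the label. In lane 7 alone (replicates 1 to 3) the fold change was -0.52 (adjusted p = 0.00481), and in lane 8 alone (replicates 4 and 5) it was 0.10 (adjusted p = 0.759). As read counts the gene had 110, 104, 114, 98 and 94 in control and 87, 76, 81, 117 and 95 in knockdown-labelled libraries, of which background would give 15.6 to 23.0 and 8.14 to 13.2 reads. Per 100 reads of the other 4 eIF2B genes together, Eif2b3 had 16.7, 20.8, 17.1, 17.9 and 13.3 reads in control and 13.7, 9.58, 11.3, 15.4 and 13.6 reads in knockdown-labelled libraries. After background subtraction from both these were 14.6 ± 2.13 and 11.6 ± 2.12 (SD, n = 5 each). This ratio does not depend on scaling. It was chosen after the values were seen and carries no test.

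**Figure D3:**
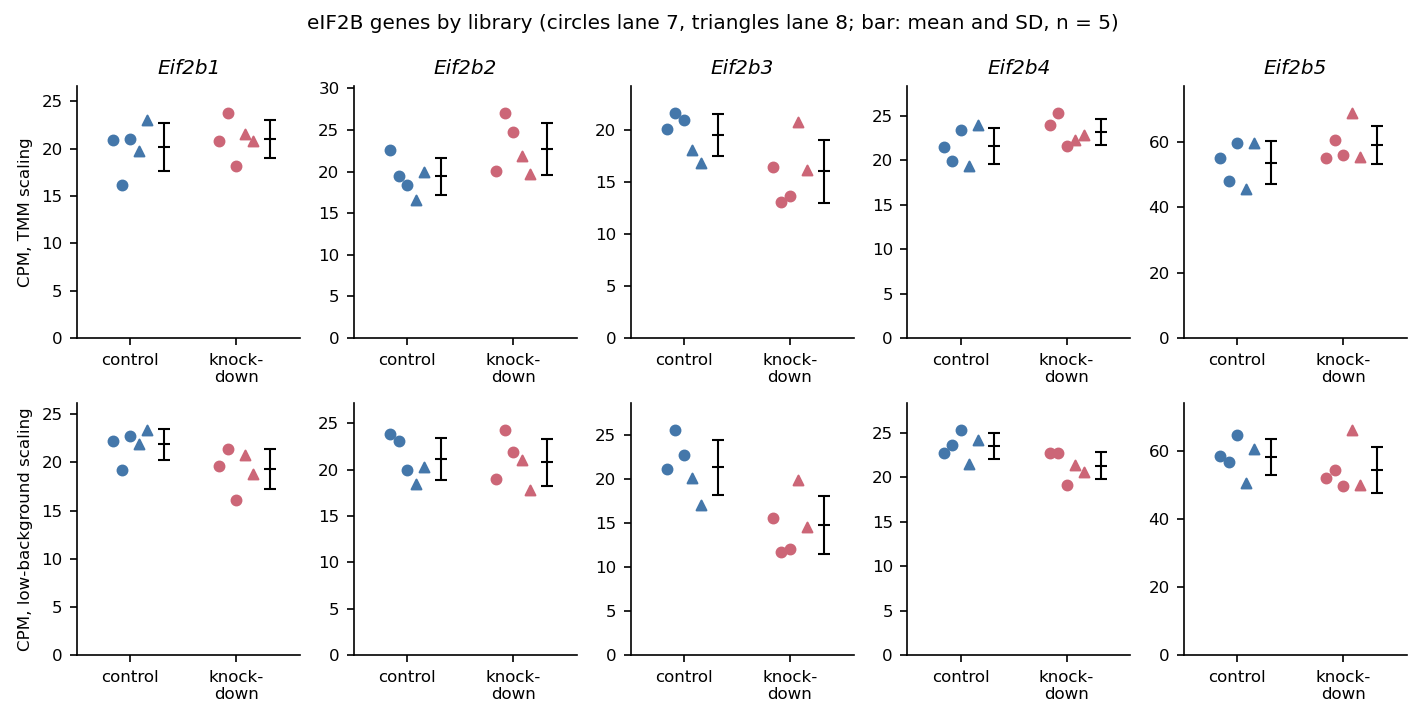
CPM of the 5 eIF2B genes in each library, with TMM scaling in the upper row and scaling on low-background genes in the lower row, circles for lane 7 and triangles for lane 8, and bars for the mean and SD of 5 libraries. For Eif2b3 the lane 7 libraries separate by label (20.03 to 21.6 CPM against 13.1 to 16.4 with TMM scaling), and the lane 8 libraries overlap.

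Promoters of 2 members that rose and of 2 eIF2B genes are shown as the 100 bases before the start in RefSeq (GRCm38.p6), for genes with a single listed start whose window meets no annotated exon. By that choice they are the pair with the largest rises, Eif3a and Eif5b, and the pair of eIF2B genes with the highest level. Capitals mark GC boxes (GGGCGG on either strand).
Eif3a, chr19:60790694-60790793, minus strand: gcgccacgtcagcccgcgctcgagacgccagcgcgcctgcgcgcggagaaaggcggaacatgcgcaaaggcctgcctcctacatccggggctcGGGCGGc
Eif5b, chr1:37997910-37998009, plus strand: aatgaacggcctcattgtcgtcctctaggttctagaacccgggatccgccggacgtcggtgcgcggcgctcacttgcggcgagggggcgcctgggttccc
Eif2b5, chr16:20498717-20498816, plus strand: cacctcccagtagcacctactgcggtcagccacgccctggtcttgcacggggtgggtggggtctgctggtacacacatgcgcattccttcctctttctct
Eif2b2, chr12:85219381-85219480, plus strand: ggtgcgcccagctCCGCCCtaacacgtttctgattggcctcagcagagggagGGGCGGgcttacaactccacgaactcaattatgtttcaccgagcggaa
GC content in these stretches was 74%, 67%, 61% and 58% in that order. Of the 51 genes, 39 had entries in the promoter table. In windows from 250 bases before to 50 after the start, on both strands, GGGCGG was found for 31 of the 39 members (79.5%), against 38.2% of all 27025 genes in the table. CACGTG (the E-box) was found for 10 members (25.6%, against 8.09% of all genes) and CCGGAAGT (an ETS-type motif) for 7 (17.9% against 4.31%). GAGGAAGT, an ETS-type motif of the kind that PU.1 binds, was found for 2, Eif3m and Eif4a3 (5.13% against 3.69%), and TGACGTCA (the cAMP response element) for none (2.03% of all genes). GAGGAAGT and CCGGAAGT share the letters GGAAGT, and these matches are descriptions of letters only.

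The noncanonical factors that bring initiator tRNA to the ribosome without eIF2 are encoded by Eif2a and Eif2d. Eif2a had 26.2, 29.1, 31.6, 29.3 and 25.5 CPM in control and 32.1, 34.8, 34.6, 28.8 and 34.2 CPM in knockdown-labelled libraries. The groups overlapped, the log2 fold change was 0.22 ± 0.090 (SE, adjusted p = 0.0354), and the call was lost when control replicate 1 (adjusted p = 0.0681), control replicate 5 (0.0563) or knockdown-labelled replicate 3 (0.0577) was left out. Eif2d had 26.8, 26.8, 35.1, 28.8 and 33.04 CPM and 29.7, 24.8, 32.4, 31.7 and 30.7 CPM, with groups that overlapped and a log2 fold change of -0.015 ± 0.093 (SE, adjusted p = 0.901). On the low-background scale Eif2d fell, with a log2 fold change of -0.26 ± 0.093 (SE, adjusted p = 0.0204), and Eif2a was at -0.031. After subtraction of background, which would account for 10.2% of its reads, Eif2d was at -0.18 ± 0.10 (SE, adjusted p = 0.258).

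eIF3, the scaffold on which the other factors gather, contributed 14 genes. Of the 13 tested, 12 were higher with TMM scaling (medians 0.26, and 0.019 on the low-background scale, where Eif3a alone was called). With TMM scaling 22.9% of all tested genes and 75.5% of low-background genes were higher. Eif3a, the largest subunit, had 1315, 1071, 1167, 1139 and 1326 CPM in control and 1456, 1478, 1522, 1518 and 1500.0 CPM in knockdown-labelled libraries. All knockdown-labelled libraries lay above the control libraries and within a narrow range. The log2 fold change was 0.31 ± 0.059 (SE, adjusted p = 2.42e-05) with TMM scaling and 0.070 ± 0.030 (SE, adjusted p = 0.0493) on the low-background scale, and the latter call was lost after background subtraction, at 0.043 ± 0.029 (SE, adjusted p = 0.348). Eif3c, also of the core, had 522, 454, 491, 477 and 529.5 CPM and 592, 602, 623, 588 and 598 CPM, again without overlap, and a log2 fold change of 0.28 ± 0.057 (SE, adjusted p = 7.04e-05), or 0.035 on the low-background scale, not called. Eif3m, a subunit with a PCI domain, had 26.8, 29.3, 27.1, 24.3 and 31.1 CPM in control and 30.4, 36.9, 39.3, 32.9 and 35.1 CPM in knockdown-labelled libraries. Its groups overlapped, and its log2 fold change was 0.34 ± 0.090 (SE, adjusted p = 0.00156), or 0.091 ± 0.087 (SE, adjusted p = 0.411) on the low-background scale. Eif3b, Eif3l, Eif3g, Eif3e, Eif3d and Eif3i rose by 0.25 to 0.30 (0.0017 to 0.052 on the low-background scale, none called) and Eif3f, Eif3k and Eif3h by 0.15 to 0.19. The latter 3 were below 0 on the low-background scale (-0.058, -0.070 and -0.092, none called), and leaving out 1 library ended the call of Eif3h (control replicates 2, 3 and 4 and knockdown-labelled replicates 2 and 5, adjusted p = 0.0624 to 0.134) and of Eif3k (control replicates 2 and 4 and knockdown-labelled replicate 3, adjusted p = 0.0527 to 0.0574). Exons of Eif3d overlap the antisense gene Gm17638 over 43.3% of their length, and Eif3h and Eif3m share 20.3% and 17.2% of their 50-base stretches with transcripts of other genes.

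Eif3j1 and Eif3j2, a pair that encodes the loosely attached eIF3j subunit, were near background. Eif3j1 had 28, 23, 12, 17 and 24 reads in control and 22, 16, 26, 27 and 16 in knockdown-labelled libraries, and Eif3j2 had 4, 4, 11, 8 and 9 and 8, 5, 9, 7 and 10. Background would account for 63.2% and 72.5% of these reads. The groups overlapped for both, and the log2 fold change of Eif3j1 in CPM (5.10, 4.78, 2.21, 3.13 and 4.29 in control, 4.16, 2.76, 4.39, 4.78 and 2.73 in knockdown-labelled libraries) was -0.052 ± 0.28 (SE, adjusted p = 0.884). The pair shares 2115 stretches of 50 bases, which are 90.8% of those of Eif3j2 and 36.6% of those of Eif3j1, and exons of Eif3j1 overlap Spg11 on the other strand over 19.0% of their length, so these counts are uncertain.

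**Figure D4:**
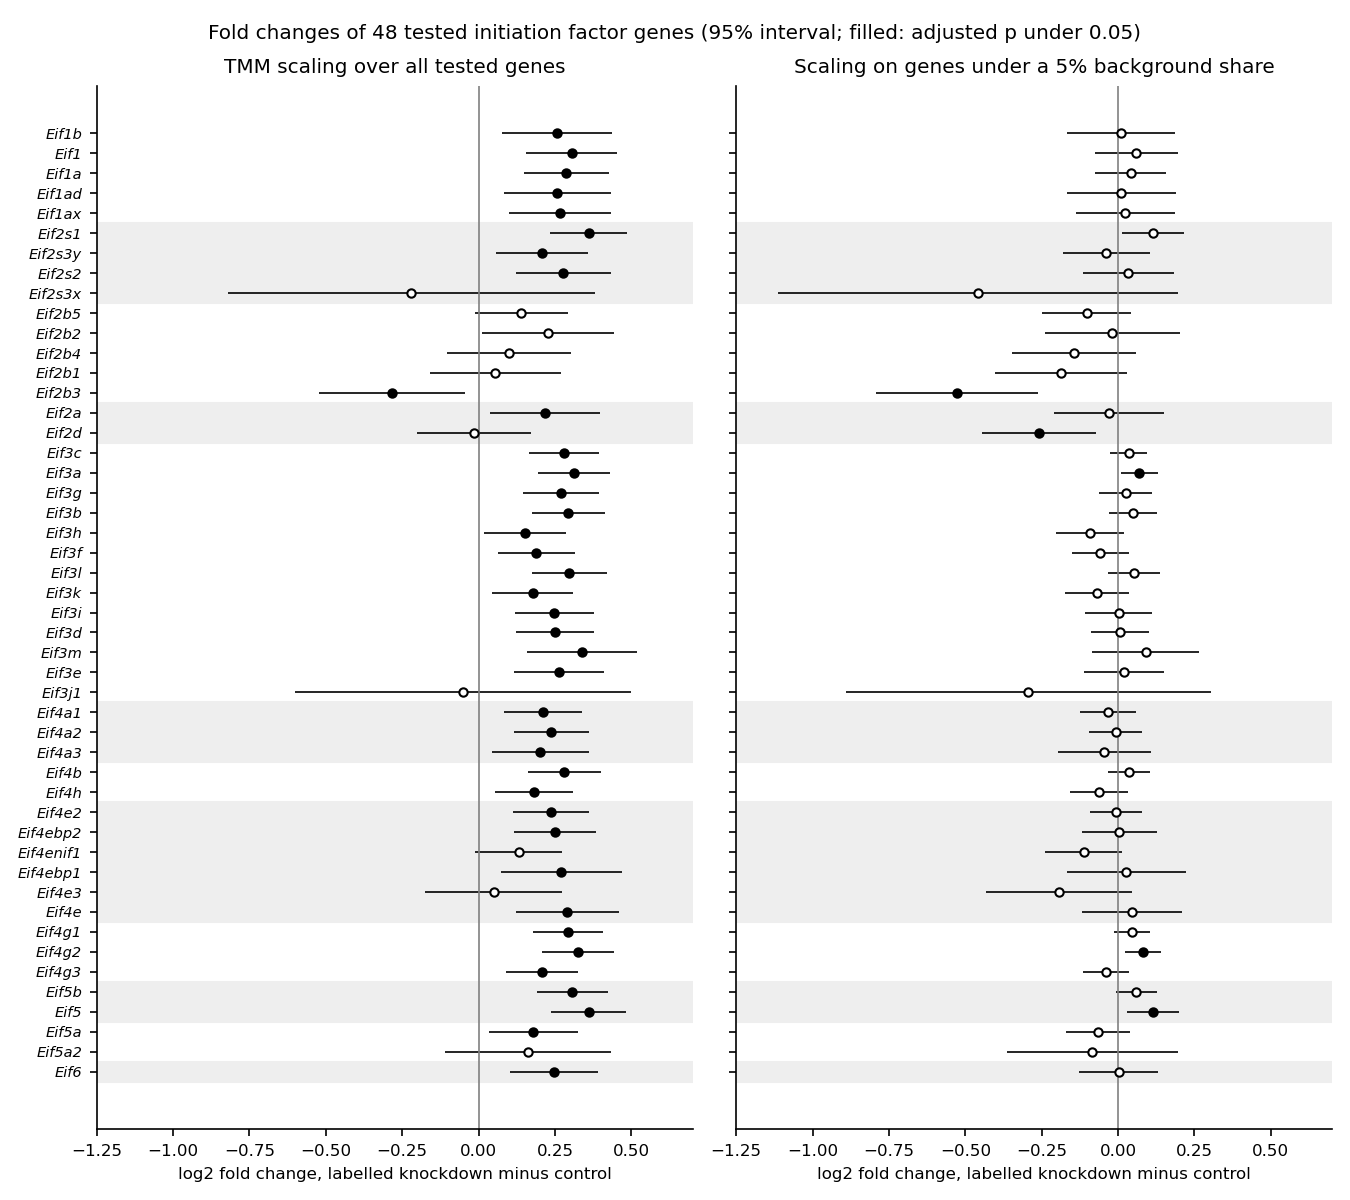
Log2 fold change (knockdown-labelled minus control) with its 95% interval for the 48 tested genes, grouped by complex, with TMM scaling on the left and scaling on genes under a 5% background share on the right, filled for an adjusted p under 0.05. On the left 37 filled points lie above 0 and Eif2b3 below it, and on the right 3 lie above and 2 below.

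The eIF4A helicases, which unwind the mRNA leader, were higher in all 3 genes with TMM scaling (0.20 to 0.24), as were 75.5% of low-background genes and 22.9% of all tested genes. All 3 were below 0 on the low-background scale (-0.045 to -0.008, none called). Eif4a1, the main form, had 115, 98.5, 108, 106 and 129.5 CPM in control and 125, 137, 134, 124 and 126 CPM in knockdown-labelled libraries, with overlap and a log2 fold change of 0.21 ± 0.064 (SE, adjusted p = 0.00465). Eif4a2, its paralog, had 125, 112, 122, 122 and 127 CPM and 132, 145, 148, 134 and 156 CPM, without overlap, and a log2 fold change of 0.24 ± 0.062 (SE, adjusted p = 0.00108). Of the 50-base stretches of Eif4a1, 24.8% recur in transcripts of other genes, so its counts are uncertain. Eif4a3, which belongs to the exon junction complex, changed by 0.20, a call that was lost without control replicate 4 (adjusted p = 0.0737) or knockdown-labelled replicate 3 (adjusted p = 0.0527). The helicase cofactors were higher as well. Eif4b had 256, 220.5, 260.2, 240.4 and 281 CPM in control and 294, 316, 312, 291 and 317 CPM in knockdown-labelled libraries, without overlap and with a log2 fold change of 0.28 ± 0.060 (SE, adjusted p = 0.000116). Eif4h, the related cofactor, had 107, 95.8, 116, 102 and 122 CPM and 121, 119, 136, 120.3 and 119 CPM. Its knockdown-labelled replicate 3 lay above the other 4, the groups overlapped, and the log2 fold change of 0.18 ± 0.064 (SE, adjusted p = 0.0143) missed the threshold without that library (0.16, adjusted p = 0.0563). On the low-background scale Eif4b was at 0.036 and Eif4h at -0.064, neither called.

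The cap-binding proteins and their regulators divided into 4 that rose with TMM scaling and 2 that were not called. Of all tested genes 22.9% rose with that scaling, and of low-background genes 75.5%. No gene of the 6 was called on the low-background scale (-0.19 to 0.044). Eif4e, the canonical cap-binding protein, had 31.9, 32.8, 30.9, 28.2 and 31.8 CPM in control and 33.8, 37.4, 40.3, 38.6 and 39.9 CPM in knockdown-labelled libraries. Its groups did not overlap, and its log2 fold change was 0.29 ± 0.085 (SE, adjusted p = 0.00337). Eif4e2, a cap-binding homolog known as a repressor of translation, was the highest of the 8 per length, with 124, 109.7, 124, 116 and 142 CPM and 142, 148, 146, 138 and 152 CPM. Those groups overlapped, and the log2 fold change was 0.24 ± 0.062 (SE, adjusted p = 0.00131). The binding proteins Eif4ebp1 and Eif4ebp2, which hold back eIF4E until mTOR phosphorylates them, rose by 0.27 and 0.25, both without overlap, and the call of Eif4ebp1 was lost without control replicate 2 (adjusted p = 0.0549). Eif4enif1, which carries eIF4E to the nucleus, was at 0.13 ± 0.072 (SE, adjusted p = 0.112). Eif4e3, another cap-binding homolog, had 26.6, 19.1, 19.1, 18.2 and 17.7 CPM in control and 23.4, 23.4, 17.4, 21.1 and 19.2 CPM in knockdown-labelled libraries, with control replicate 1 set apart above the others and a log2 fold change of 0.050 ± 0.11 (SE, adjusted p = 0.725). The 2 untested genes of this group had few reads. Eif4e1b, the oocyte form, had 11, 14, 7, 17 and 11 reads in control and 8, 5, 3, 7 and 5 in knockdown-labelled libraries, and Eif4ebp3 had 0 to 4 and 0 to 6. Background would account for 58.6% and 77.3% of these.

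The eIF4G scaffolds, which bridge the cap complex and eIF3, were higher in all 3 genes with TMM scaling, as were 75.5% of low-background genes and 22.9% of all tested genes. Eif4g1 had 504, 466, 505, 499 and 534 CPM in control and 591, 629, 639.7, 591 and 622 CPM in knockdown-labelled libraries. Without overlap between groups, its log2 fold change was 0.29 ± 0.057 (SE, adjusted p = 3.70e-05), and it was 0.045 ± 0.029 (SE, adjusted p = 0.203) on the low-background scale. Eif4g2, also called DAP5, which lacks the eIF4E-binding part, had 713, 603, 710.5, 663 and 762 CPM and 832, 873, 911, 817 and 897 CPM. These groups did not overlap, and the log2 fold change was 0.33 ± 0.059 (SE, adjusted p = 1.33e-05) with TMM scaling and 0.082 ± 0.029 (SE, adjusted p = 0.019) on the low-background scale. After background subtraction it was 0.059 ± 0.028 (SE, adjusted p = 0.155), not called. Eif4g3 rose by 0.21 with TMM scaling and was at -0.039 on the low-background scale, not called.

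Of the late factors, Eif5 and Eif5b were higher with TMM scaling, as were Eif5a and Eif6. Eif5, the GTPase-activating protein of eIF2, had 124, 104, 113, 118 and 122 CPM in control and 142, 154, 153, 142 and 156 CPM in knockdown-labelled libraries. All knockdown-labelled libraries were above the control range. The log2 fold change was 0.36 ± 0.062 (SE, adjusted p = 5.53e-06) with TMM scaling and 0.11 ± 0.042 (SE, adjusted p = 0.024) on the low-background scale, and it was 0.11 ± 0.043 (SE, adjusted p = 0.0643) after background subtraction. Eif5b, the GTPase that joins the large subunit, had 458, 391, 416, 384 and 436 CPM and 491, 513, 554, 505 and 513 CPM, without overlap. Its log2 fold change was 0.31 ± 0.058 (SE, adjusted p = 2.80e-05), or 0.059 on the low-background scale, not called, and 16.8% of its exon bases overlap Rev1 on the other strand. Eif5a, whose protein carries hypusine and acts mostly in elongation, had 107, 84.99, 112, 101 and 121 CPM in control and 109.5, 123, 131, 103 and 129 CPM in knockdown-labelled libraries. The groups overlapped, and its log2 fold change of 0.18 ± 0.072 (SE, adjusted p = 0.0333) missed the threshold without control replicate 2 (0.12, adjusted p = 0.107) or replicate 4 (0.17, adjusted p = 0.0664), or without knockdown-labelled replicate 3 (0.16, adjusted p = 0.0842) or replicate 5 (0.18, adjusted p = 0.0632). The paralog Eif5a2, far lower per length (2.49 against 44.2 CPM per kb in control), was at 0.16 ± 0.14 (SE, adjusted p = 0.314). Eif6, which keeps the large subunit from joining early, had 62.5, 51.1, 56.9, 54.8 and 58.04 CPM and 71.8, 58.2, 71.2, 68.5 and 66.8 CPM, with overlap, and a log2 fold change of 0.25 ± 0.072 (SE, adjusted p = 0.00334). Eif5a was at -0.066 and Eif6 at 0.0019 on the low-background scale, neither called.

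The median coefficient of variation of the 48 genes was 8.90% in control and 6.22% in knockdown-labelled libraries, against 5.47% and 4.93% from counting error alone. With TMM scaling the CPM values of the groups did not overlap for 22 of the 48 genes (45.8%), all 22 higher in the knockdown-labelled libraries, against 12.6% of all tested genes and 44.5% of the low-background genes that were higher without overlap. Scaled on low-background genes, 3 were higher without overlap (Eif5, Eif4g2 and Eif4g1, 6.25%), against 0.722% of all tested genes and 2.83% of the low-background genes. None of the 48 was lower without overlap on either scale, against 14.2% of all tested genes and 0.36% of the low-background genes with TMM scaling, and 22.9% and 2.45% on the low-background scale.

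Ratios of 2 members within a library do not depend on scaling. Of 19 pairs fixed by role or paralogy, 18 had both members tested. No ratio was called at an adjusted p under 0.05 (exact two-sided permutation tests, Benjamini-Hochberg over the 18 pairs). A single pair at the smallest possible exact permutation p, 0.00794, has an adjusted p of 0.143. The test could thus not call a lone pair, and the lack of calls does not show that the ratios were equal. Unadjusted, 2 had an exact permutation p under 0.05. The log2 ratio of Eif2d to Eif2s1, the noncanonical against the canonical tRNA route, was -1.50 ± 0.20 in control and -1.87 ± 0.16 in knockdown-labelled libraries (SD, n = 5 each). The difference of -0.37 had all 5 knockdown-labelled libraries below the control range (exact permutation p = 0.00794, the smallest possible, adjusted p = 0.143), and it was -0.28 after background subtraction (exact permutation p = 0.0873). The log2 ratio of Eif4g3 to Eif4g1 differed by -0.083 (exact permutation p = 0.0238, adjusted p = 0.214), with overlap. Ratios between paralogs included -0.049 for Eif1b to Eif1, -0.0094 for Eif1ax to Eif1a, 0.02 for Eif4a2 to Eif4a1, 0.037 for Eif4g2 to Eif4g1 and -0.026 for Eif5a2 to Eif5a, as differences in log2 ratio with exact permutation p of 0.31 or more. The ratio of Eif2s3y to Eif2s3x moved by 0.52 (exact permutation p = 0.127), and by -0.45 after background subtraction.

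**Figure D5:**
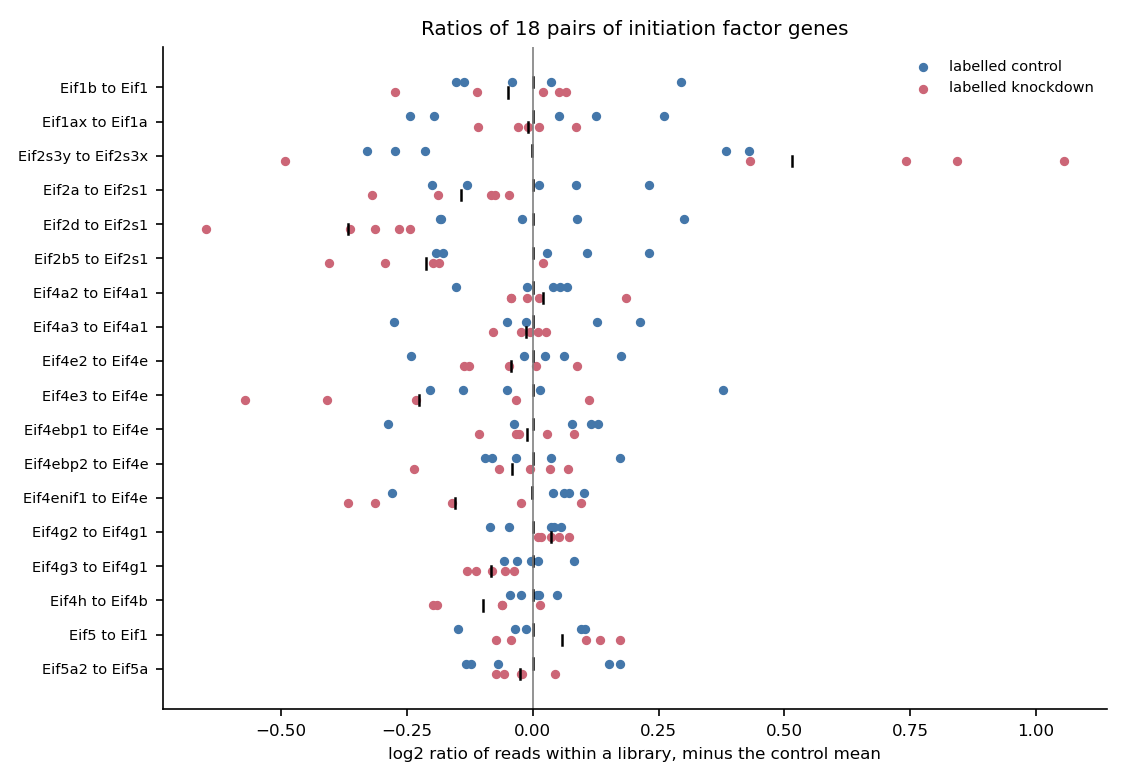
Log2 ratio of reads within each library for 18 pairs, minus the mean of the control libraries, blue for control and red for knockdown-labelled libraries, with black bars for the means of 5. The groups are apart for Eif2d to Eif2s1, and they overlap for the other 17 pairs.

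Other genes of the pathway were read from lists set with earlier results of these data known. Beside their counts, 22.9% of all tested genes rose and 31.3% fell with TMM scaling, and 1.62% rose and 44.6% fell on the low-background scale. Of the low-background genes, 75.5% rose and 0.486% fell with TMM scaling, and 6.32% rose and 5.46% fell on the low-background scale. Among the eIF2 kinases and the phosphatase that reverses them, 6 of 10 genes rose with TMM scaling and none fell (median 0.21), while on the low-background scale none rose and 1 fell (Gcn1l1, the activator of Gcn2, at -0.14, adjusted p = 0.0139). Dnajc3, an inhibitor of PERK, changed by 0.31 ± 0.066 (SE, adjusted p = 0.000127), and Ppp1r15b, the constitutive phosphatase subunit, by 0.28 ± 0.063 (SE, adjusted p = 0.000213). Eif2ak2, the kinase PKR, changed by 0.28 and Impact, an inhibitor of Gcn2, by 0.24. These 4 were at 0.063, 0.034, 0.031 and -0.0077 on the low-background scale, none called. Of 16 genes of mTOR and cap control, 7 rose and none fell (median 0.15), and on the low-background scale none rose and 3 fell (median -0.096): Mtor itself (-0.13, adjusted p = 0.0253), Rptor, its partner in complex 1 (-0.18, adjusted p = 0.00209), and Tsc1, its upstream inhibitor (-0.16, adjusted p = 0.0125). The background shares of these 3 were 3.78%, 4.77% and 5.05%. The genes of smallest p with TMM scaling were Cyfip1 (0.28), Larp1 (0.28), which binds mRNAs of the translation machinery, Mknk2 (0.25), an eIF4E kinase, and Tsc2 (0.20), which were at 0.040, 0.032, 0.0039 and -0.049 on the low-background scale, none called.

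Of 14 helicases, poly(A)-binding proteins and other partners, 8 rose and none fell with TMM scaling (median 0.26). For this list and those below, the shares over all tested genes were 22.9% and 31.3% on that scale. On the low-background scale they were 1.62% and 44.6%. Paip2, an inhibitor of poly(A)-binding protein, had 59.8 ± 6.17 CPM in control and 80.7 ± 8.07 CPM in knockdown-labelled libraries (SD, n = 5 each) and a log2 fold change of 0.43 ± 0.072 (SE, adjusted p = 4.07e-06). Paip2, the Y-linked helicase gene Ddx3y and Pabpc1, the main poly(A)-binding protein, were also higher on the low-background scale (0.19, 0.13 and 0.087, adjusted p = 0.0112, 0.0244 and 0.0149). On that scale Dhx29, a helicase for structured leaders, and Bzw2, an eIF5 mimic, were lower (-0.23 and -0.30, adjusted p = 0.0142 and 0.0401). The background shares of these 2 were 5.39% and 12.2%, and whether background had a part was not tested. Denr, which acts with Mcts1 on recycled subunits, rose by 0.36 with TMM scaling and was at 0.12 (adjusted p = 0.068) on the low-background scale. For elongation and eIF5A modification 5 of 9 rose (median 0.24). Among them were Eef1b2 (0.33), Eef2 (0.27), Eef1a1 (0.27) and Dhps (0.41), which takes part in making the hypusine of eIF5A. On the low-background scale Eef1b2 alone of these 9 was called, at 0.088, and Eef2, Eef1a1 and Dhps were at 0.025, 0.029 and 0.17. For termination and recycling 3 of 6 rose (median 0.18), and Abce1, which splits the ribosome, was higher on both scales (0.40 with TMM scaling and 0.15 on the other). Of 8 mitochondrial translation factors 2 rose (Gfm2, 0.21, and Gfm1, 0.17) and 1 fell (Tufm, -0.59), with a median of 0.074 and a median background share of 9.37%. On the low-background scale none of these rose (Gfm2 was at -0.037 and Gfm1 at -0.076), and Tufm, Tsfm and Mtif3 fell. Tufm had only 5.41 CPM in control, and the background shares of Tufm, Tsfm and Mtif3 were 19.7%, 9.65% and 9.10%.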

How the data were processed

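Total RNA of primary mouse microglia was made into libraries with a random-primed, strand-marking kit, per the labels' protocols, and the submitters' processing notes name bcl2fastq and the build GRCm38 (mm10). No aligner, counting program or strand setting is given in the sources used here. The values, as deposited, are whole-number counts of reads per gene, with no normalization visible. Of 55471 genes, 55230 matched GENCODE M21, and the 241 others held 0.0107% of reads. The 92 spike-in entries (0 to 2 reads per library) were left out. Groups, replicate numbers and lanes came from the labels. Replicates 1 to 3 were in lane 7 and replicates 4 and 5 in lane 8 in both groups. Chi-square per degree of freedom between libraries of 1 group was 1.71 to 4.58, so no pair of libraries agreed within counting noise. The members and lists were chosen with earlier results of these data known.

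Counts were filtered by group (filterByExpr), scaled by TMM and tested with edgeR 4.0.16 (robust quasi-likelihood test, R 4.3.3, with no term but the group). P-values were adjusted by Benjamini and Hochberg's method over all tested genes and a threshold of 0.05. The SE is the log2 fold change over the square root of F. Tested on simulated counts, 30%, 78%, 98% and 100% of 50 genes each changed 1.2-, 1.5-, 2- and 3-fold were found, with 6 false calls among 18667 genes tested. In that simulation few genes changed, in both directions, and background did not differ between groups. Its rates therefore need not hold for the real counts, where background density differed. Background reads per gene were the density over 1135 olfactory receptor genes times exon length. Within-library log2 ratios had 0.5 reads added to each gene. Repeats of 50 bases were sought in GENCODE M21 transcripts only. Other fits used DESeq2 1.42.0, limma-voom (limma 3.58.1), other scalings and filters, background subtraction (genes under a 50% share), density, lane or the replicate number as terms, each lane alone, and each library left out. Full values are given for the highest and most changed member of each complex, the 6 largest rises and falls, and members with a library set apart. A result was counted as reversed where a direction called in either setting turned. Promoters are from RefSeq (GRCm38.p6). Figures were drawn with Python and matplotlib.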

Additional observations from a re-analysis of the deposited data

Results flagged for a closer look

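In 2 of 96 groups of 5 libraries examined (48 genes in each label group), 1 library lay far from the other 4 by Dixon's test at a gap over 0.71 of the range, which chance gives in about 1 in 20 groups. Eif4e3 had 26.6 CPM in control replicate 1, against 17.7 to 19.1 CPM in the other control libraries. Eif4h had 135.7 CPM in knockdown-labelled replicate 3, against 119.1 to 121.2 CPM in the other 4.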

How the results depend on the processing

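Against 37 genes higher and 1 lower with TMM scaling, the counts were 37 and 0 with DESeq2 and 36 and 1 with limma-voom, lane as a term or the replicate number as a block. In these fits 22.3% to 25.9% of all tested genes were higher and 26.2% to 31.4% lower. Such shares are given below in parentheses for fits with other scalings, filters, terms or libraries. The member counts were 12 and 1 when scaled by upper quartiles (8.75% and 37.4%) and 6 and 2 by library totals (3.94% and 40.9%). They were 3 and 2 on low-background genes (1.62% and 44.6%) and 0 and 1 after background subtraction (1.02% and 12.6%). With background density as a term they were 0 and 0 (0.0208% and 0.0831%). A filter of 5 CPM in 5 libraries gave 17 and 1 (17.1% and 18.7%) and no filter 40 and 1 (12% and 15%). Leaving out members whose exons overlap another gene gave 24 and 1 (fewer genes). At an adjusted p under 0.01 they were 26 and 0. Lane 7 gave 31 and 1 (20.7% and 28.9%) and lane 8, with 4 libraries, 0 and 0 (0.328% and 0.749%), with member medians of 0.28 and 0.23. The median of 0.25 became 0.10 by upper quartiles, 0.0423 by library totals, 0.0018 on low-background genes, 0.0025 after subtraction, 0.0605 with density as a term, 0.37 with no filter and 0.13 with the stricter filter. Its difference from the median of the low-background genes stayed between -0.0199 and 0.0157 in all of these fits. Leaving out 1 library gave 31 to 39 genes higher and 0 to 2 lower (19.9% to 24.8% and 25.1% to 34.2%). Calls lost in this way were those of Eif2b3 (7 libraries), Eif3h (5), Eif5a (4), Eif2a and Eif3k (3 each), Eif4a3 (2), and Eif1ad, Eif4ebp1 and Eif4h (1 each). No ratio was called under any of its alternatives, but none of these could call a lone pair. With the replicate number as a block, the exact sign-flip test cannot give a p under 0.0625, so it could call no pair. Same-numbered libraries did not deviate together (correlations -0.295 to 0.199, above 0.1 in 2 of 5 pairs), so the replicate block rests on a number only.

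Log2 fold changes that turned, by library totals, were Eif3f -0.0172, Eif3h -0.0519, Eif3k -0.0290, Eif4a3 -0.00392, Eif4h -0.0231, Eif5a -0.0259. On low-background genes they were Eif2a -0.0311, Eif2s3y -0.0383, Eif3f -0.0580, Eif3h -0.0923, Eif3k -0.0697, Eif4a1 -0.0338, Eif4a2 -0.00800, Eif4a3 -0.0446, Eif4e2 -0.00732, Eif4g3 -0.0385, Eif4h -0.0636, Eif5a -0.0663. After subtraction they were Eif2s3y -0.0191, Eif3f -0.0746, Eif3h -0.11, Eif3i -0.00318, Eif3k -0.0862, Eif4a1 -0.0455, Eif4a2 -0.0163, Eif4a3 -0.0501, Eif4e2 -0.00692, Eif4g3 -0.0423, Eif4h -0.0695, Eif5a -0.0852, Eif6 -0.00479. With density as a term they were Eif2b3 0.0943, Eif3d -0.0585, Eif3f -0.0289, Eif3g -0.00749, Eif3h -0.0780, Eif3k -0.10, Eif4a1 -0.10, Eif4b -0.0112, Eif4e2 -0.0521, Eif4h -0.0883, Eif5a -0.30, and in lane 8 alone Eif2b3 0.10. Beyond the smaller samples and gene sets named, the cause was not tested. Depth limits genes with few reads, such as Eif2s3x and Eif3j1.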
